A study of Arabidopsis thaliana with 14 samples.

Results

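The mature embryo, the finished plantlet of the ripe seed, was compared with the zygote, the fertilised egg cell from which it grows. The comparison covers 4 of the 14 libraries of an RNA sequencing atlas of 7 embryo stages, 2 from mature stage embryos and 2 from zygote stage embryos, and every gene of the deposited table that carries a locus code. These were 25414 genes, of which 18744 were abundant enough to test. All libraries came from whole embryos of the Arabidopsis thaliana ecotype Col-0, a laboratory reference strain, with no treatment or mutation given. The labels call the 2 libraries of a stage biological replicates, and the sources used here do not say how many embryos each one pooled.

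Seed maturation is run by a network of transcription factors around LEC1, LEC2, FUS3 and ABI3 and by the hormone abscisic acid. Under it the embryo stores protein and oil, makes protectants against drying, and stops growing. The zygote begins with RNA inherited from the egg cell together with its own first transcripts, and it divides asymmetrically within a growing seed whose coat and endosperm are separate tissues.

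Values below are normalised read counts, scaled by the authors to 20000000 reads a library, and are not corrected for transcript length. Differences are mature minus zygote on log2(value + 4), with the standard error (SE) of the fit, and they understate the change of low genes. A gene is called higher or lower at an adjusted p under 0.05 (limma on all 14 libraries, two-sided, Benjamini-Hochberg adjustment over the 18744 genes). The mature libraries held 12783748 and 20444185 reads and the zygote libraries 20625372 and 13563668, so that 1 read was worth 0.970 to 1.56. Across genes the libraries of a stage correlated at r = 0.966 in mature embryos and 0.980 in zygotes, where genes are not independent replicates. Entries without a locus code took 9.15% and 10.6% of reads in mature libraries against 22.5% and 19.9% in zygote libraries. The p-values measure the spread between the 2 libraries of a stage, pooled over all 7 stages, which may be partly technical. An exact test of 2 libraries against 2 could not go below p = 0.333. Reads carry no strand information, and a gene lying over a neighbour may hold reads of both. Of the genes named here this holds for AT1G68570, RAB18, HSP17.4, AT3G15450, FBR12, OLEO1, AT1G67360, AT2G47780, COR15B, AT3G22490, UNE15, HSP101, EEL, ABF3, HSFA9, HSL1, PYL7, ABI1, GolS1, ADH1, CSD1, FER1, FER2, PIMT1, PIMT2, BETA-TIP, AT1G24360, LPLAT1, LHCB6, PSAD-2, AUR2, FIB2, NOP56, AIL6, MP, EC1.1, EC1.2, RKD2, DUO1 and MYB98. Transcripts that share over 10% of their 50-base words with another gene were AT1G68570, HSP17.4, COR15B, BIP1, BIP2, PYL7, BETA-TIP, LHCB6, AUR2, AIL6, EC1.1, EC1.2, RKD2 and MYB98, and their values are uncertain too. In whole embryos, fewer cells of a type and less RNA per cell cannot be told apart.

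Most genes differed between the ends of embryo development. Of 18744 genes, 12228 were called (65.2%), with 5550 higher in mature embryos (29.6%) and 6678 lower (35.6%). A log2 difference of 3 or more was reached by 1915 higher genes (10.2%) and a difference of -3 or less by 3236 lower genes (17.3%), as the plot of mature against zygote values shows. Differences ranged from 14.38 to -13.70, with a median of -0.16 over all genes tested. Libraries of both stages did not overlap for 15322 genes (81.7%), 7141 with mature higher (38.1%) and 8181 with mature lower (43.6%). The split of the calls depended on scaling, since 45.4% of them were higher in mature embryos with the deposited scaling and 53.2% after centring each library on its median. That centring moved the median difference to 0.25.

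**Figure D1:**
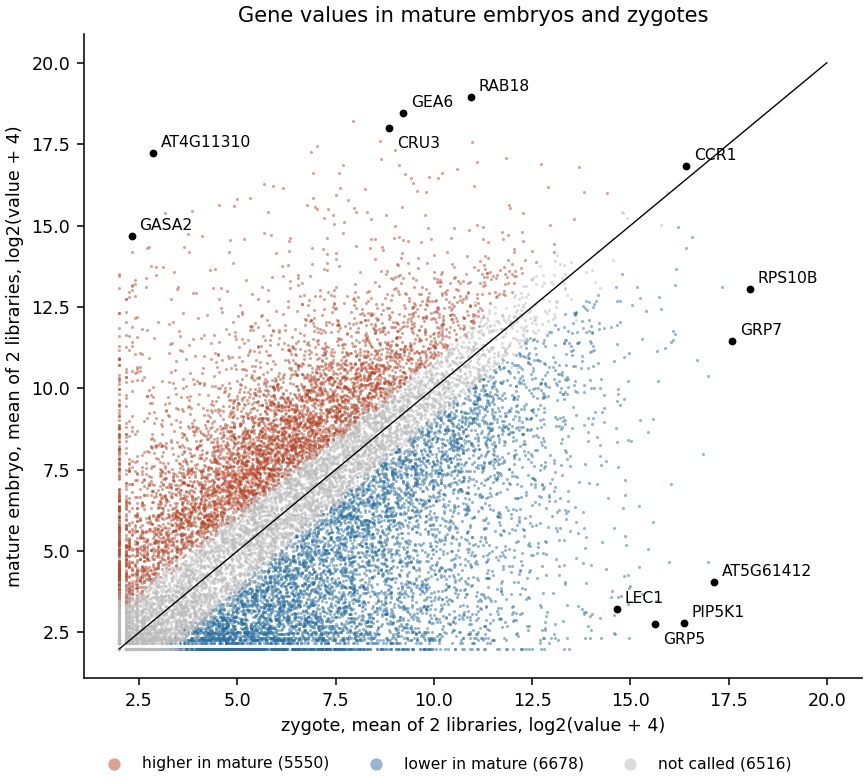
Mean log2(value + 4) of each of 18744 genes in 2 mature libraries (vertical axis) against 2 zygote libraries (horizontal axis), coloured by call, with the line of equal values. Genes higher in mature embryos (5550) lie above the line, genes lower (6678) below it, and AT4G11310 and PIP5K1 lie at the ends of the range.

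The mature transcriptome was concentrated in fewer genes. Its 10 most read genes took 15.44% and 13.47% of the reads in named genes, against 8.46% and 9.84% for the 10 most read genes of the zygote libraries. The first 100 genes took 44.0% and 42.1% in mature libraries, against 30.6% and 30.7% in zygote libraries. At a value of 10 or more, 12685 and 13425 genes were found in mature libraries, against 14730 and 15086 in zygote libraries. When every library was thinned to 10864640 reads, 11815 and 12538 genes kept 10 reads in mature libraries, against 14109 and 14318 in zygote libraries. The numbers of genes found at a value of 10, or at 10 reads after thinning, did not overlap between stages. At a value of 1 they did (17899 and 17628 in mature libraries, against 17839 and 18237 in zygote libraries). However, 1 read was worth more than 1 in mature replicate 1 (1.56) and zygote replicate 2 (1.47), and less in the others (0.978 and 0.970). Genes with a read after thinning did not overlap (17737 and 18030 in mature libraries, against 18423 and 18237 in zygote libraries).

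All 10 genes that took the most reads in mature embryos belong to lists of seed maturation genes. The lists were chosen with earlier results of these data known, so this is a description. The 10 comprised the LEA genes RAB18, GEA6, M10, AT3G15670 and AT3G53040 and the storage globulin genes CRU3, CRU2 and AT1G03890. The oil body gene ATS1 and the small heat shock gene HSP17.4 completed them. RAB18, a dehydrin that accumulates under abscisic acid, stood at 631871 and 382216 in mature libraries, against 1761 and 2147 in zygote libraries (difference 7.98, SE 0.39, adjusted p = 7.1e-10). GEA6, a LEA protein of the Em group, had values of 408115 and 315344 in mature libraries, against 411 and 768 in zygote libraries (9.31, SE 0.63, adjusted p = 1.1e-08). Each of these 10 genes was called higher in mature embryos. None was absent from the zygote libraries, where their values ran from 97.3 to 2147.

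The most read genes of the zygote were of other kinds. RPS10B, a ribosomal protein of the small subunit, had values of 10568 and 6555 in mature libraries, against 228483 and 309956 in zygote libraries (difference -5.00, SE 0.44, adjusted p = 1.7e-07). GRP7, a glycine-rich RNA-binding protein of the circadian system, stood at 1768 and 3859 in mature libraries, against 164820.0 and 230907 in zygote libraries (-6.22, SE 0.59). A ribosomal P-protein gene (AT2G27710), a further glycine-rich protein (AT3G24250) and a gene with the annotation of aluminium induced protein (AT3G15450) were also among the 10, and were called lower. FBR12, a translation factor of the eIF-5A type, kept 24988 and 25840.1 in mature libraries, against 103041 and 89992 in zygote libraries. Only CCR1 (AT3G09780, a receptor-like kinase) was not called among these 10, at 95423 and 138344 in mature libraries against 84171 and 92348 in zygote libraries (0.38, SE 0.48, adjusted p = 0.51).

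Most of the 15 genes with the largest rises had only a few reads in the zygote libraries. The largest was AT4G11310, a papain-family cysteine protease on chromosome 4 (6883513 to 6885517), with 128926 and 176873 in mature libraries, against 1.94 and 4.42 in zygote libraries (difference 14.38, SE 0.88, adjusted p = 4.1e-09). GASA2 and GASA3, small secreted proteins of the gibberellin-regulated GASA family, lie 1123 bases apart on chromosome 4 and were both among the 15. GASA2 stood at 19169.7 and 33307 in mature libraries, against 1.94 and 0 in zygote libraries, and GASA3 stood at 39862 and 59599 in mature libraries, against 50.4 and 1.47 in zygote libraries. Zygote replicate 1 was thus well above replicate 2 for GASA3, and both were far below the mature libraries. AtMT4b, a metallothionein, which binds metal ions, had values of 62544 and 22816 in mature libraries, against 0.97 and 8.85 in zygote libraries.

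AIG2L, LTI65 and CYP76C7 had no read in either zygote library. LTI65, also known as RD29B and a classical abscisic acid responsive gene, stood at 9266 and 13220.4 in mature libraries. Set against the limit that 3 reads over both zygote libraries allow, a value of 1.75, LTI65 was at least 6407-fold higher in mature embryos. AIG2L was at least 6642-fold higher and the cytochrome P450 gene CYP76C7 at least 4946-fold higher. These limits cover counting error only. The other rises were LCR67, a defensin, AT3G56350, an iron or manganese superoxide dismutase, AT1G17010, a 2-oxoglutarate dependent oxygenase, AT4G35160, an O-methyltransferase, AT1G68570, a major facilitator transporter, AT2G29300, a Rossmann-fold protein, AT5G63350, with a von Willebrand factor A domain, and the uncharacterised AT1G68250. Their differences ran from 10.89 for AT1G68570 to 11.91 for AT5G63350.

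The genes with the largest falls had few reads or none in the mature libraries. PIP5K1, a kinase that makes the membrane lipid phosphatidylinositol bisphosphate, had 0 and 5.87 in mature libraries, against 76047 and 92525 in zygote libraries (difference -13.70, SE 0.81, adjusted p = 3.1e-09). The uncharacterised AT5G61412 stood at 20.3 and 4.89 in mature libraries, against 155442 and 130134 in zygote libraries (-13.24, SE 0.84). GRP5, a glycine-rich cell wall protein, had 1.56 and 3.91 in mature libraries, against 47082 and 54223 in zygote libraries. LEC1, the master regulator of embryo identity, lies 5011 bases from PIP5K1 on chromosome 1 and stood at 0 and 10.8 in mature libraries, against 30064 and 21555 in zygote libraries (-11.69, SE 0.55, adjusted p = 6.3e-10).

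Several of the 15 falls encode small secreted or lipid-binding proteins. LTP6, a lipid transfer protein, had 3.13 and 10.8 in mature libraries, against 41902 and 61128 in zygote libraries. MLP43 and AT4G23670, of the major latex protein and polyketide cyclase superfamily, had log2 differences of -12.15 and -12.18. PROPEP1, the precursor of a peptide signal of wounding and defence, had 0 and 1.96 in mature libraries, against 13584 and 25425 in zygote libraries. The others were CYP709B1, a cytochrome P450, OCT3, an organic cation transporter, AT2G14900, of the gibberellin-regulated family, AT1G58055, a defensin-like protein, AT5G20700, with a DUF581 domain, and the unannotated AT1G22065 and AT2G24693. Their differences ran from -11.52 for AT2G24693 to -12.69 for CYP709B1. GASA-type genes thus stood at both ends, GASA2 and GASA3 among the rises and AT2G14900 among the falls.

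**Figure D2:**
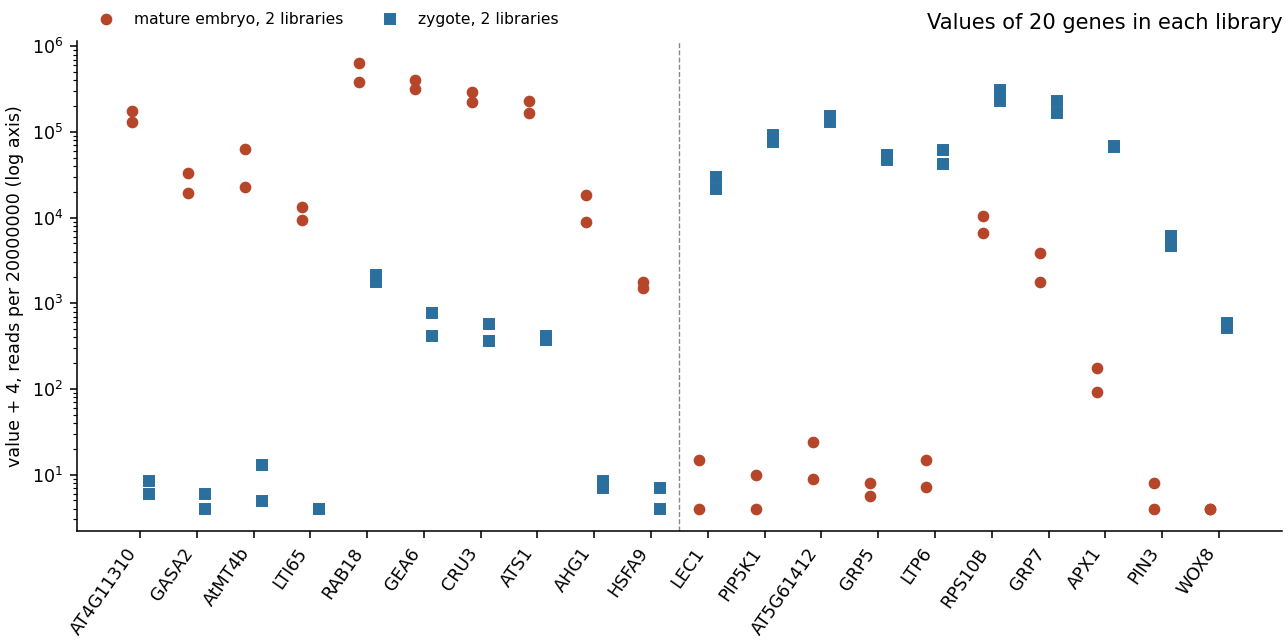
Value + 4 of 20 genes in each mature library (circles, left of each name) and zygote library (squares, right), in reads per 20000000 on a log axis, with genes higher in mature embryos left of the dashed line. For each gene both mature libraries lie on the same side of both zygote libraries, as with LTI65 at 9266 and 13220.4 in mature libraries and no read in zygote libraries.

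Promoters of 5 of these genes are shown because they carry the letters of known plant elements. Each window holds the 250 bases before the gene start, 5′ to 3′ on the gene's strand, from the RefSeq assembly TAIR10.1, and overlaps no annotated gene. In GEA6 (chr2:16780369-16780618, minus strand), LTI65 (chr5:21236771-21237020, plus strand), CRU3 (chr4:14087306-14087555, plus strand) and GASA2 (chr4:6075646-6075895, minus strand) capitals mark the core of the abscisic acid response element (ABRE), ACGTG, and the RY element, CATGCA, which B3 factors such as FUS3 and ABI3 bind. In RPS10B (chr5:16610693-16610942, minus strand) capitals mark site II, TGGGCC, an element of promoters of ribosomal and cell cycle genes. Letters were searched on both strands, and overlapping matches count separately.
GEA6: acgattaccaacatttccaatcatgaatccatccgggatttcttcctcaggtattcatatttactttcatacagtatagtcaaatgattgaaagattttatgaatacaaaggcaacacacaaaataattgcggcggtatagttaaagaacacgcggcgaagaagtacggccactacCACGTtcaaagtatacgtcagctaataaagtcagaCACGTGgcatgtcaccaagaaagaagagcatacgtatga
LTI65: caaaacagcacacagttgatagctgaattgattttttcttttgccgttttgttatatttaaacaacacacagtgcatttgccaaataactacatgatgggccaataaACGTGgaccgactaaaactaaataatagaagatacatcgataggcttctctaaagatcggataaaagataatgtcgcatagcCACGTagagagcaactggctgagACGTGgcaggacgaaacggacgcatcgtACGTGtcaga
CRU3: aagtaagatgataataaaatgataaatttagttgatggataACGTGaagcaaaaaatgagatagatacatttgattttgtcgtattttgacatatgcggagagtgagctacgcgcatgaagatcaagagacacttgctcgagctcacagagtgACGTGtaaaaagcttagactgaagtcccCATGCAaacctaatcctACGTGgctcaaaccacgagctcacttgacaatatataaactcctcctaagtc
GASA2: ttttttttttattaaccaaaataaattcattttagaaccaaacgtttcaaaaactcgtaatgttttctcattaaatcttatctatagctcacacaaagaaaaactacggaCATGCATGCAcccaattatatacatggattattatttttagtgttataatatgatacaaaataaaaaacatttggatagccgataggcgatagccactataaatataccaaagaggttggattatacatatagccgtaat
RPS10B: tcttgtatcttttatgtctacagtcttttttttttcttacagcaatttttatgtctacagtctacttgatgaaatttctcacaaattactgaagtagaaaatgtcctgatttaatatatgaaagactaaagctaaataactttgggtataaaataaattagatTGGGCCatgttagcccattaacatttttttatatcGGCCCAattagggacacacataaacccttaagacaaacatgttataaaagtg
The GEA6 window has 3 ABRE core matches in 2 stretches and the LTI65 window has 4. The CRU3 window combines 3 ABRE cores with 1 RY element, and the GASA2 window has 3 overlapping RY matches and 0 ABRE cores. RPS10B has 2 site II matches.

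The ABRE core and RY letters were common in front of seed maturation genes. The ABRE core occurred in 29 of 37 LEA and dehydrin promoters (78.4%), 10 of 14 oil body promoters (71.4%) and 4 of 8 storage protein promoters, against 22.9% of all 27443 promoters. Among the 15 largest rises it occurred in 66.7%, and among the 15 largest falls in 13.3%. Over the wider set it occurred in 32.2% of promoters of genes higher by a log2 difference of 3 or more and in 23.4% of those lower by as much. RY letters stood in 78.6% of oil body promoters and 6 of 8 storage protein promoters, but in 21.6% of LEA promoters, against 8.43% of all. Site II letters occurred in 62.5% of 16 small heat shock promoters, 54.5% of 22 ribosome biogenesis promoters and 4 of 8 ribosomal protein promoters, against 13.7% of all. The telo-box core, ACCCTA, stood in 2 of the 8 ribosomal protein promoters, against 9.48% of all. A heat shock element of inverted units, GAANNTTC, stood in 4 of the 16 small heat shock promoters, against 9.55% of all. A match of letters is a description and shows no binding, and shares of lists this small move by several percent with a single gene.

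**Figure D3:**
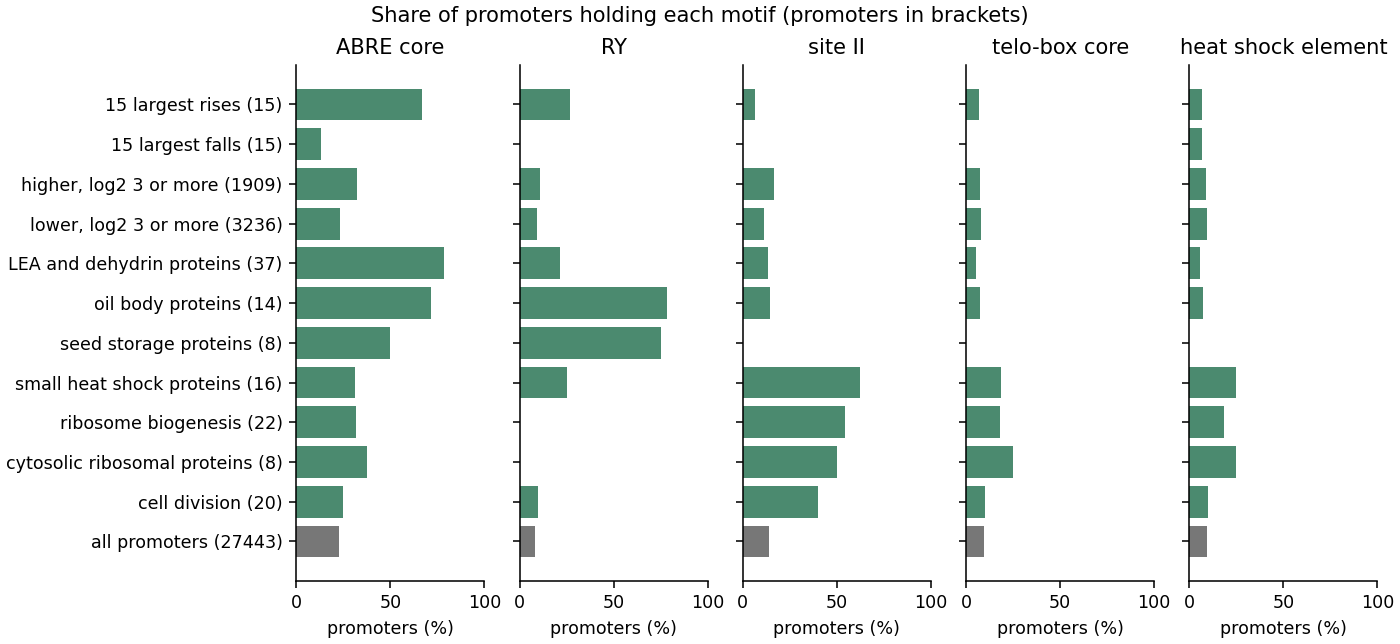
Share of promoters (250 bases before the gene start, both strands) with at least 1 match to each motif, for gene sets and for all 27443 promoters (grey), with set sizes in brackets. The ABRE core is most frequent in the LEA list (78.4%), RY in the oil body (78.6%) and storage lists (6 of 8), and site II in the small heat shock list (62.5%).

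Seed storage proteins, which feed the seedling, rose together. Of 13 listed genes 8 were in the table and tested, and 7 of these were higher in mature embryos and 0 lower (limma, also 0 at an unadjusted p under 0.05, and 1 with edgeR or DESeq2), beside 29.6% of all genes higher. A gene that passed the filter only through its high stage had to differ, so such counts describe the lists. Every list count below stands beside 29.6% of all genes higher and 35.6% lower. The list summed to 805728 and 668184 in mature libraries, against 4628 and 4522 in zygote libraries, and its median difference was 6.97. CRU3, the cruciferin with the most reads, had 293512 and 224996 in mature libraries, against 358 and 568 in zygote libraries (9.14, SE 0.51, adjusted p = 1.9e-09). CRU2 and CRA1, further cruciferins, rose by 6.57 and 7.36, and AT1G03890, which lies 1051 bases from CRU2, rose by 10.40. PAP85, a vicilin-like globulin, had 15776 and 12162 in mature libraries, against 57.2 and 76.7 in zygote libraries.

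Oil body proteins, which coat the droplets of storage oil, showed 13 of 14 members higher and 1 lower (median difference 6.41). ATS1, the caleosin of seed oil bodies, stood at 167999 and 229702 in mature libraries, against 408 and 370.1 in zygote libraries (8.97, SE 0.36, adjusted p = 2.2e-10). OLEO1, the main oleosin, had 101499 and 151604 in mature libraries, against 2254 and 2117 in zygote libraries (5.82, SE 0.41). ATPXG2, a caleosin-type peroxygenase, rose by 8.60. AT5G16460, a seipin, which shapes oil droplets as they form, had no read in either zygote library and was at least 685-fold higher in mature embryos. The exception was AT1G67360, a rubber elongation factor family protein, at 591 and 828 in mature libraries against 5848 and 7402 in zygote libraries (-3.23, SE 0.34), while AT2G47780 of the same family rose by 7.0.

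LEA and dehydrin proteins, which protect membranes and proteins in drying cells, took the largest share of the mature transcriptome among the 26 lists. Of 40 listed genes 37 were tested, with 28 higher and 7 lower (median difference 6.81). They held 13.6% and 11.8% of the reads in named genes of mature libraries, against 0.0757% and 0.0849% in zygote libraries. AT1G72100 (24248 and 28277 in mature libraries, against 14.5 and 11.8 in zygote libraries) and M10 (212836 and 140587 in mature libraries, against 106 and 149 in zygote libraries) rose by 10.58 and 10.38. AT3G22490, which lies 781 bases from the LEA gene ATECP31, had no read in the zygote libraries and was at least 1331-fold higher in mature embryos.

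The 7 LEA-type genes that fell included 3 dehydrins. COR47 had 1.56 and 2.93 in mature libraries, against 842 and 690.1 in zygote libraries (-6.95, SE 0.59, adjusted p = 1.1e-07). Its neighbour ERD10, 1029 bases away on chromosome 1, had 4.69 and 5.87 in mature libraries, against 1131 and 969 in zygote libraries (-6.83, SE 0.52). ERD14 had 0 and 14.7 in mature libraries, against 1158 and 1599.9 in zygote libraries (-7.30, SE 0.76). In these dehydrin genes both mature libraries thus lay close to 0, whereas the dehydrins RAB18, XERO1 and LTI30 rose by 7.98, 7.6 and 4.71. The chloroplast cold proteins COR15A and COR15B, the drought-induced DI21 and UNE15 were the other members called lower.

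Heat shock chaperones, which hold or refold damaged proteins, were mostly higher in mature embryos. Of 16 small heat shock proteins 13 were higher and 1 lower (median difference 5.12), and the list summed to 478892 and 348233 in mature libraries, against 2015 and 2203 in zygote libraries. HSP17.6A had 107903 and 131824 in mature libraries, against 146 and 257 in zygote libraries (9.23, SE 0.52, adjusted p = 2.0e-09). HSP17.4 had 323791 and 183616 in mature libraries, against 408 and 521 in zygote libraries, but shares 61.5% of its 50-base words with another gene. AT4G21870 was the member that fell, with 6.26 and 4.89 in mature libraries, against 220.1 and 187 in zygote libraries.

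Among 11 large chaperones 6 were higher and 2 lower. Hsp70b, a stress-induced cytosolic HSP70, stood at 105493 and 95536 in mature libraries, against 154 and 224 in zygote libraries (9.05, SE 0.41, adjusted p = 4.8e-10). HSP101, the disaggregase of heat tolerance, and HSP90.1 rose by 6.78 and 5.45. Both called falls were BIP1 and BIP2, the HSP70 proteins of the endoplasmic reticulum, with BIP2 at 65.7 and 78.3 in mature libraries, against 1620.3 and 1961 in zygote libraries. BIP1 and BIP2 share over 20% of their words with other genes, so reads may have been split between them.

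Soluble protectants and antioxidants followed the same course in part. GolS1 makes galactinol, the donor for the seed sugars of the raffinose family, and had 120946 and 59117 in mature libraries, against 630.3 and 737 in zygote libraries (6.95, SE 0.69, adjusted p = 4.8e-07). GolS2 rose by 5.37 and ADH1, alcohol dehydrogenase, by 6.15, whereas CINV1, a cytosolic invertase that splits sucrose, fell by 6.28. In that list 4 of 5 members were higher and 1 lower. Of 14 antioxidant and repair genes 9 were higher (64.3%) and 5 lower (35.7%), beside 29.6% and 35.6% over all genes. The share lower was thus that of all genes.

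The antioxidant list held pairs of related genes that moved in opposite directions. FER2, the ferritin of seeds, had 74213 and 125561 in mature libraries, against 85.3 and 150.4 in zygote libraries (9.68, SE 0.48), and FER1 had 73.5 and 199 in mature libraries, against 852 and 599 in zygote libraries (-2.52, SE 0.49, adjusted p = 3.2e-04). PIMT2, which repairs aged proteins, rose by 8.17 and PIMT1 fell by 3.44. PER1, the seed peroxiredoxin, rose by 9.64 and VTE1, of vitamin E synthesis, by 6.57. APX1, the main cytosolic ascorbate peroxidase, had 89.2 and 170.2 in mature libraries, against 67124 and 68044 in zygote libraries (-9.05, SE 0.48, adjusted p = 1.3e-09). CSD1, a copper and zinc superoxide dismutase, fell by 5.6.

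**Figure D4:**
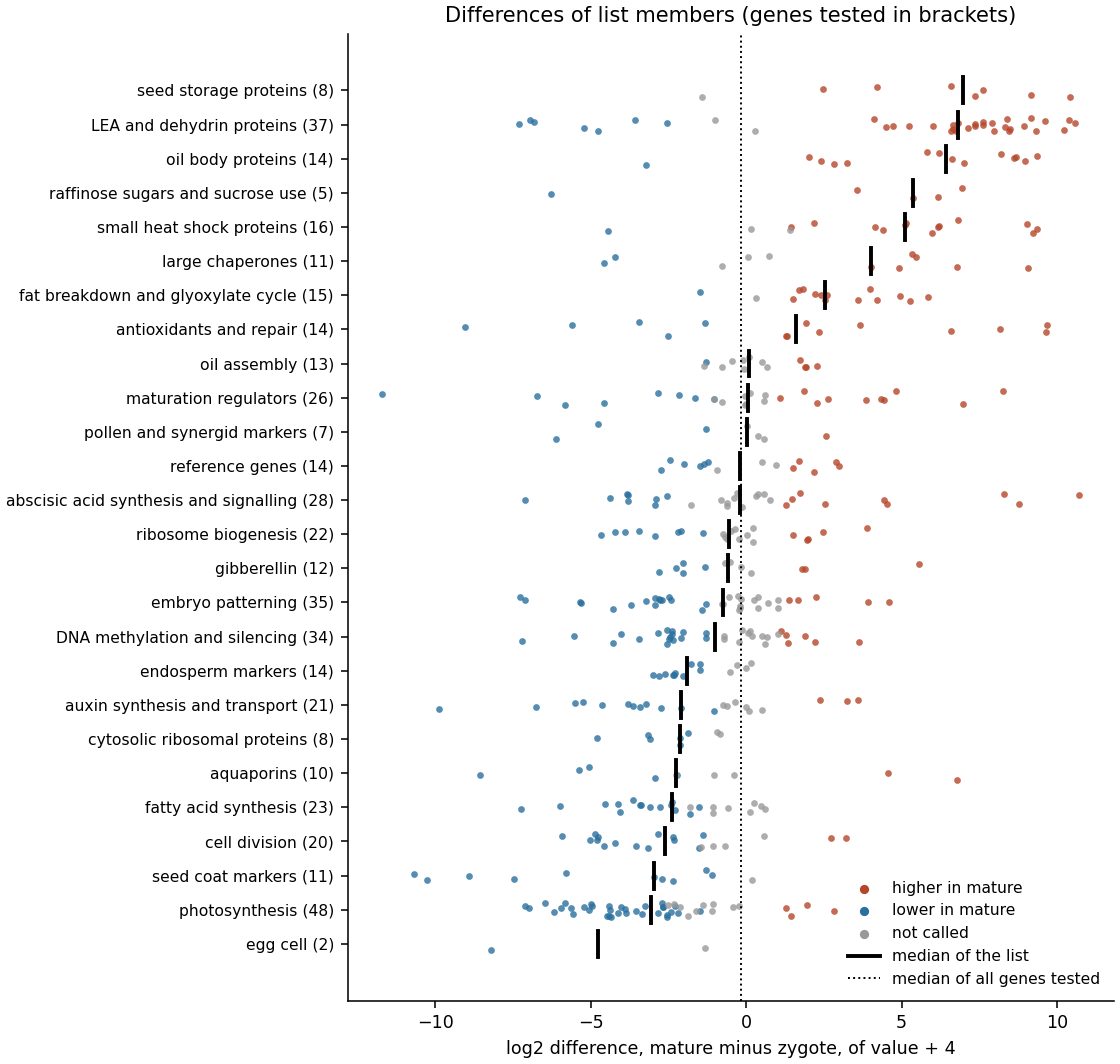
Log2 difference, mature minus zygote, of each tested member of 26 gene lists (horizontal axis), coloured by call, with each list's median (bar) and the median over all genes (dotted line). Medians run from 6.97 for seed storage proteins to -4.77 for the egg cell list, which has 2 tested members, and many lists hold members on both sides.

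Of 26 maturation regulators 10 were higher and 8 lower (median difference 0.06), shares near the 29.6% higher and 35.6% lower over all genes, so that the count says nothing particular of the list. LEC1 and LEC2, which start maturation, were both lower, LEC2 having 0 and 2.93 in mature libraries against 284 and 307 in zygote libraries (-5.83, SE 0.49, adjusted p = 9.6e-08). FUS3 was not called at 189 and 151 in mature libraries against 245 and 124 in zygote libraries (-0.05, SE 0.50), and the sign of that value changed with the scaling. ABI3, which carries the later programme, had 476 and 2043 in mature libraries, against 138 and 177 in zygote libraries (2.63, SE 0.52, adjusted p = 3.9e-04). The seed bZIP factors ABI5, BZIP53 and EEL were higher too, by 4.43, 4.35 and 4.82. DPBF2, a further bZIP factor, was called lower. That call was lost under quantile normalization (-0.99) and in the fit on the 4 libraries alone (-1.63). HSFA9, the heat stress factor of seeds, had 1748 and 1499 in mature libraries, against 0 and 2.95 in zygote libraries (8.27, SE 0.40, adjusted p = 7.1e-10). DOG1, the seed dormancy gene, rose by 6.96. HSI2 and HSL1, B3 repressors of the seed programme, had differences of -2.83 and -4.55, and ABF3, a bZIP factor of vegetative abscisic acid responses, fell by 6.74.

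Of 28 abscisic acid genes 9 were higher and 8 lower (9 and 9 with edgeR, DESeq2 or equal totals), also near the shares over all genes. NCED3, of abscisic acid synthesis, had 11 and 15.65 in mature libraries, against 259.9 and 214 in zygote libraries, and CYP707A2, which degrades the hormone, had 3396 and 1213 in mature libraries, against 0 and 1.47 in zygote libraries. Among receptors PYL6 fell by 7.11 and PYL4 fell by 3.83, whereas PYL7 rose by 4.42 but shares 43.8% of its words with another gene. The clade A phosphatases, which hold the pathway off until the hormone binds, moved in both directions. AHG1 had 8835 and 18504 in mature libraries, against 2.91 and 4.42 in zygote libraries (10.71, SE 0.76, adjusted p = 1.8e-08), HAI3 had no zygote read and was at least 730-fold higher, and HAI2 rose by 4.53. ABI1 fell by 4.38, ABI2 fell by 2.9 and PP2CA fell by 2.94, PP2CA still reaching 7688 and 6546 in mature libraries against 56329 and 52529 in zygote libraries. Of 12 gibberellin genes 3 were higher and 5 lower (3 and 3 after quantile normalization or median centring, and 3 lower without zygote replicate 2). These gibberellin shares, 25% higher and 41.7% lower, were again near those over all genes. GA3, ent-kaurene oxidase of gibberellin synthesis, rose by 5.56 and the receptor GID1A by 1.90. GID1B, a further receptor, and GAI, a DELLA repressor, had differences of -2.03 and -2.25.

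Genes of fatty acid synthesis were lower in mature embryos, while genes of fat breakdown were higher. Fatty acid synthesis in the plastid had 0 of 23 genes higher (limma, also 0 at an unadjusted p under 0.05 and with edgeR or DESeq2) and 15 lower (median difference -2.38). Without mature replicate 1 the numbers were 3 and 11, and a fit on the 4 libraries alone called 9 lower. ACP2, an acyl carrier protein, had 4.69 and 542 in mature libraries, against 8981 and 11808 in zygote libraries (-7.22, SE 1.21, adjusted p = 9.4e-05). ACP3 fell by 5.98, AT1G24360, a reductase of the cycle, fell by 4.55 and MOD1, enoyl-ACP reductase, fell by 4.11 (not called with the 4 libraries alone, adjusted p = 0.11). Mature replicate 2 lay above replicate 1 for all 23 genes, and the list summed to 1791 and 8441 in mature libraries, against 35952 and 39051 in zygote libraries.

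Oil assembly in the endoplasmic reticulum had 4 of 13 genes higher (30.8%) and 1 lower (7.69%), and 8 were not called. The share higher was near the 29.6% over all genes, and the share lower was below the 35.6% over all genes. LPLAT1 and LPLAT2, acyltransferases that edit membrane lipids, rose by 2.28 and 1.89, and DGAT3, a soluble acyltransferase, fell by 1.3, a call that was lost without zygote replicate 2 (adjusted p = 0.084). Without mature replicate 2, or either bent library, 2 genes were lower. In fat breakdown and the glyoxylate cycle, which turn oil into sugar at germination, 13 of 15 genes were higher and 1 lower (median difference 2.53). ICL, isocitrate lyase, stood at 6737 and 7811 in mature libraries, against 115 and 129.8 in zygote libraries (5.84, SE 0.39, adjusted p = 9.3e-09). MLS, malate synthase, rose by 4.93 and PKT3, the thiolase of peroxisomal beta-oxidation, had 38433 and 56699 in mature libraries, against 3378 and 4453 in zygote libraries (3.59, SE 0.43). PMDH2, a peroxisomal malate dehydrogenase, was the member that fell, by 1.5 (not called without zygote replicate 1), while PMDH1 rose by 4.2.

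Photosynthesis genes were mostly lower, with 34 of 48 called lower and 4 higher (median difference -3.05). LHCB6, a light-harvesting protein of photosystem II, had 11 and 378 in mature libraries, against 10826 and 8425 in zygote libraries (-6.98, SE 0.96, adjusted p = 1.4e-05). PSAK, a photosystem I subunit, fell by 6.48 and DRT112, plastocyanin, fell by 5.94. FED A, a ferredoxin, went the other way with 1252 and 1155 in mature libraries, against 139.6 and 202 in zygote libraries (2.81, SE 0.42), and LHCB4.1 rose by 1.95. PSAD-2 and PETC were the other members called higher, and lost their call when a library was left out (2 members higher without zygote replicate 2).

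The mature replicates differed in this list too. Mature replicate 2 exceeded replicate 1 in 45 of the 48 genes, beside 54.8% of all genes tested, and the list summed to 5438 and 16673 in mature libraries, against 86378 and 88802 in zygote libraries. RBCS1A, of the Rubisco small subunit, had 70.4 and 2553 in mature libraries, on either side of 841 and 972 in zygote libraries, and was not called (-1.06, SE 1.00, adjusted p = 0.38). Its difference was 1.49 without mature replicate 1 and -3.61 without mature replicate 2. The list had 24 lower members without mature replicate 1 and 43 without mature replicate 2. A fit on the 4 libraries alone called 21 lower.

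Of 41 listed cell division genes 20 were in the table and tested, with 14 lower and 2 higher (median difference -2.60). MCM3, of the replicative helicase, had 0 and 8.8 in mature libraries, against 393 and 473 in zygote libraries (-5.93, SE 0.50, adjusted p = 1.0e-07), and PCNA1, the sliding clamp, had 0 and 57.7 in mature libraries, against 402 and 634 in zygote libraries. The exceptions were E2F1, a cell cycle transcription factor, which rose by 3.22, and AUR2, an Aurora kinase with 35.5% of its words shared, which rose by 2.73. Cytosolic ribosomal proteins had 6 of 8 tested members lower and 0 higher (limma, also 0 at an unadjusted p under 0.05 and with edgeR or DESeq2), and AT1G70600 stood at 1040.4 and 3500.3 in mature libraries, against 52131 and 53164 in zygote libraries (-4.78, SE 0.58).

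Of 22 ribosome biogenesis genes 8 were lower and 5 higher, shares near the 35.6% and 29.6% over all genes. NOP56 and FIB2, box C/D ribonucleoproteins that guide rRNA methylation, had differences of -4.67 and -3.46. NOF1 and PUM24, nucleolar proteins of ribosome assembly, rose by 3.90 and 2.48, NOF1 having 401 and 351 in mature libraries against 22.3 and 20.6 in zygote libraries. Among 10 aquaporins 5 were lower (50%) and 2 higher (20%), beside 35.6% and 29.6% over all genes. Their summed value was nevertheless higher in mature libraries (14337 and 29571) than in zygote libraries (7189 and 10075). PIP2E, a plasma membrane water channel, had 4.69 and 3.91 in mature libraries, against 2764 and 3537 in zygote libraries (-8.56, SE 0.50, adjusted p = 3.0e-09), whereas BETA-TIP, a water channel of the seed storage vacuole, rose by 6.77 (with 40.5% of its words shared) and PIP1B by 4.56.

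Of 35 patterning genes 16 were lower and 5 higher, beside 35.6% lower and 29.6% higher over all genes. WOX8, expressed in the zygote and in the basal cell lineage, had no read in the mature libraries, against 517 and 582 in zygote libraries, and was at least 304-fold lower in mature embryos. WOX2, of the apical lineage, had 153 and 208 in mature libraries, against 33.9 and 35.4 in zygote libraries (2.24, SE 0.55, adjusted p = 0.0022). ESR1, which promotes shoot formation, fell by 7.28 and MP, the auxin response factor MONOPTEROS, fell by 5.31. AIL6, of the PLETHORA family, and YAB3, of leaf polarity, rose by 4.6 and 3.93. The remaining rises, WOX1 and WUS, had no value above 9.39 in any of the 4 libraries, and their calls were lost when a library was left out (3 members higher without zygote replicate 1 or mature replicate 2, and 8 after quantile normalization).

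In auxin synthesis and transport 12 of 21 genes were lower and 3 higher, and the list summed to 358 and 724 in mature libraries, against 15451 and 13225 in zygote libraries. PIN3, an auxin efflux carrier, had 0 and 3.91 in mature libraries, against 6037 and 4704 in zygote libraries (-9.89, SE 0.81, adjusted p = 7.0e-08), and AUX1, an influx carrier, had 26.6 and 81.2 in mature libraries, against 6376 and 4863 in zygote libraries (-6.77, SE 0.59). EIR1 and PIN4, carriers of the same family as PIN3, rose by 3.23 and 2.38, and YUC2, of auxin synthesis, had no zygote read and was at least 25.4-fold higher. Of 34 genes of DNA methylation and silencing 17 were lower and 6 higher, beside 35.6% lower and 29.6% higher over all genes. AGO5, an Argonaute of reproductive cells, fell by 7.21 and CHR1, the remodeller also called DDM1, fell by 5.54. DML1, the demethylase also called ROS1, had 881 and 812 in mature libraries, against 69.8 and 60.5 in zygote libraries (3.62, SE 0.50, adjusted p = 1.5e-05), and DML2 rose by 1.89.

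The stage labels were set against markers. Seed maturation genes were abundant in the mature libraries, as given above. Of the EC1 family of egg cell peptides, EC1.5 (AT5G64720) had no read in the mature libraries and 1620.3 and 854 in zygote libraries, at least 685-fold lower in mature embryos. The egg cell list summed to 1628 and 863 in zygote libraries, nearly all of it EC1.5. The list's mean sum was 1245 in zygote, 1175 in octant and 421 in globular embryos, so the sum did not set the zygote apart from octant. EC1.1, EC1.2, EC1.3 and EC1.4 had no read in either zygote library, where 3 reads over both allow a value of up to 1.75. RKD2, an egg cell factor, stood at 0 in both mature libraries, against 3.88 and 8.85 in zygote libraries, and was not called, though it was called lower with a pseudocount of 1, upper-quartile scaling, array weights, the 4 libraries alone or without either globular library (adjusted p = 0.019 to 0.047).

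Markers of the seed coat were present in the zygote libraries, and their mean sum was higher at octant (49174) than at zygote (31208). Of 11 tested, 10 were lower in mature embryos and 0 higher (limma, also 0 higher at an unadjusted p under 0.05 and with edgeR or DESeq2), and the list summed to 2592 and 2757 in mature libraries, against 31508 and 30909 in zygote libraries. DFR, of flavonoid synthesis, had 0 and 1.96 in mature libraries, against 8532 and 7597 in zygote libraries. LDOX, of the same pathway, had 0 and 3.91 in mature libraries, against 7281 and 6526 in zygote libraries. BAN, of proanthocyanidin synthesis in the inner seed coat, had 0 and 1.96 in mature libraries, against 3369 and 1659 in zygote libraries. These markers move with the genes lower in mature embryos, and their part in the falls described above was not tested. Most of the list's mature signal came from UGT80B1 and ARA12, with UGT80B1 at 1424 and 1474 and ARA12 at 1137 and 1239 in mature libraries.

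Markers of other tissues were also read. Endosperm markers had 10 of 14 lower (limma, 9 with edgeR or DESeq2) and 0 higher (also 0 with edgeR or DESeq2 and at an unadjusted p under 0.05). They summed to 50.1 and 84.1 in mature libraries, against 424 and 432 in zygote libraries. Of the pollen and synergid list, VGD1, a pectin methylesterase of pollen tubes, had 26.6 and 10.8 in mature libraries, against 1548 and 1368 in zygote libraries. Its neighbour VGDH1 fell by 4.78. DUO1, of sperm cells, had no read in any of the 4 libraries, and the synergid factor MYB98 had no zygote read. Of 7 tested members 3 were lower and 1 higher (2 and 2 after quantile normalization), beside 35.6% lower and 29.6% higher over all genes. The list summed to 92.3 and 57.7 in mature libraries, against 1751 and 1597 in zygote libraries, where VGD1 made up most of the sum. The list's median difference was 0.02, and 4 of its 9 members had no read in either zygote library. Its mean sum was higher at octant (2117) than at zygote (1674).

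Of 14 genes commonly used as internal standards 5 were higher and 6 lower, near the 29.6% and 35.6% over all genes, and the split changed with scaling (6 and 3 after median centring, 6 and 4 with edgeR). Members lower numbered 1 without mature replicate 1 and 3 without either zygote library or with the 4 libraries alone. PP2AA3, a phosphatase subunit, had 282 and 341 in mature libraries, against 27.2 and 45.7 in zygote libraries (3.0, SE 0.38, adjusted p = 5.8e-06), and UBC9 rose by 2.90. ACT2, an actin of vegetative tissue, had 59.5 and 425 in mature libraries, against 1035 and 780.0 in zygote libraries, and its call was lost without mature replicate 1 (adjusted p = 0.14), without zygote replicate 1 (adjusted p = 0.0501) and with the 4 libraries alone (adjusted p = 0.099).

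The other 5 stages showed when the changed genes were highest. Of the 1915 genes higher by 3 or more, 68.4% had their highest stage mean at the mature stage, 14% at torpedo and 11.5% at bent. Of the 3236 genes lower by 3 or more, 44.7% had their highest mean in the zygote and 21.4% at octant, against 13.3% and 18.7% over all genes tested. Genes chosen as higher in mature embryos could not peak in the zygote, nor those chosen as lower at the mature stage, so these shares are a description. Storage protein RNAs peaked before maturity, since their list's mean sum was 1811930 in bent embryos and 736956 in mature embryos. LEA and small heat shock RNAs instead reached their highest sums at the mature stage. Fatty acid synthesis and photosynthesis peaked at torpedo, so that the mature and zygote levels compared here lie on either side of a maximum.

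**Figure D5:**
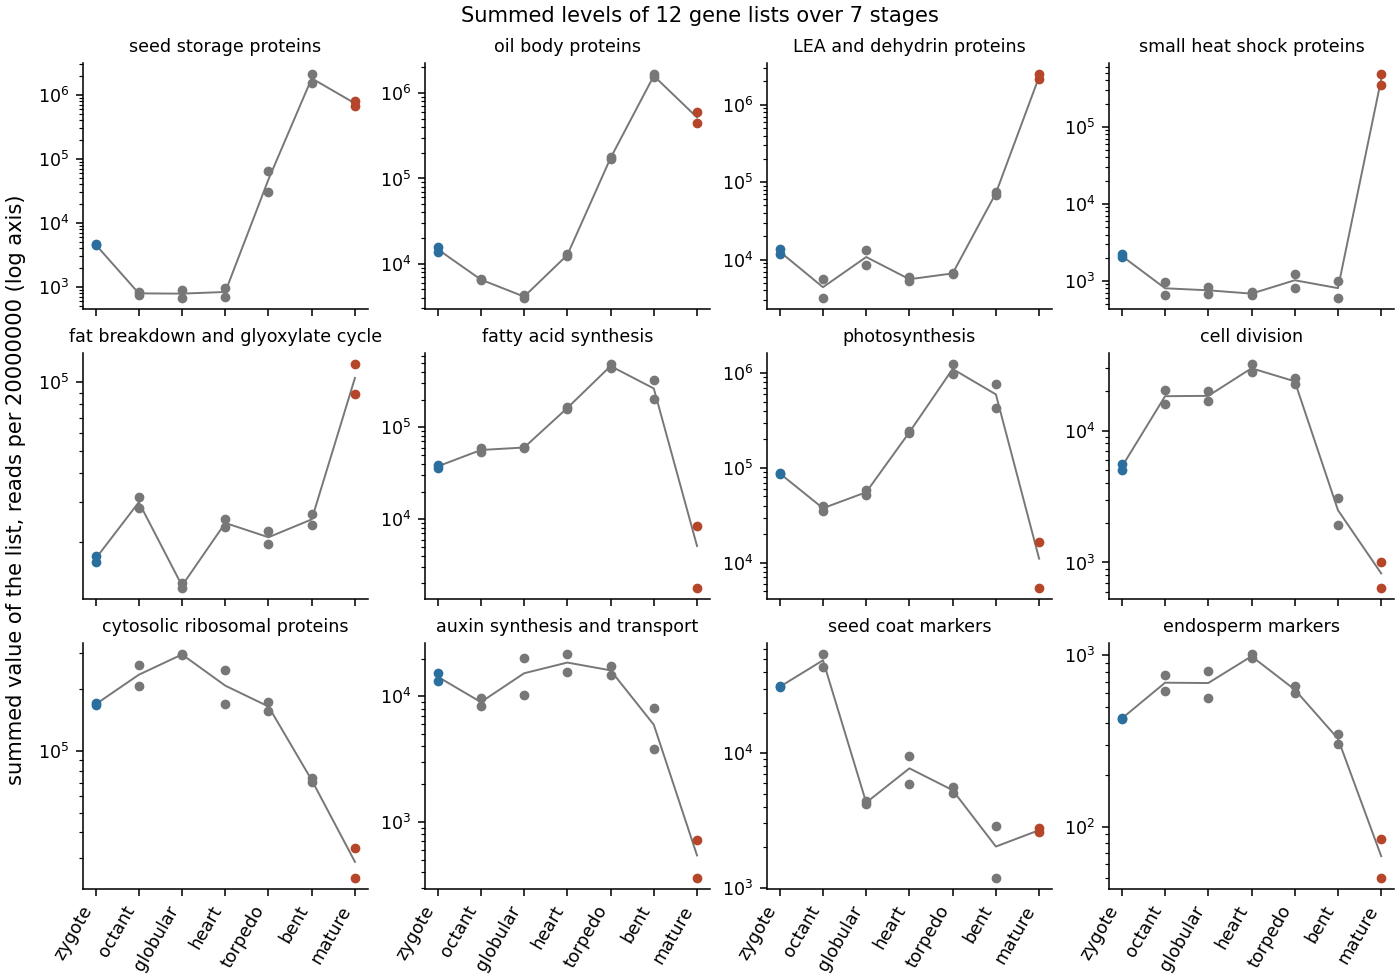
Summed values of 12 gene lists in each of the 14 libraries (points, log axes, reads per 20000000) over 7 stages, with lines through the stage means, zygote in blue and mature in red. Storage and oil body sums peak at bent, LEA and small heat shock sums at mature, and photosynthesis and fatty acid synthesis sums at torpedo, falling to 5438 and 16673 for photosynthesis in the mature libraries.

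Some changed genes lie next to each other. Besides GASA2 with GASA3, LEC1 with PIP5K1, CRU2 with AT1G03890 and COR47 with ERD10, the LEA genes M17 and M10 lie 1998 bases apart and LTI30 and XERO1 lie 313 bases apart, and both members of each pair were higher in mature embryos. HSP17.6II and HSP17.6A, 845 bases apart, rose by 5.98 and 9.23. No test of clustering was made.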

How the data were processed

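Total RNA of whole embryos was amplified with the MessageAmp kit and made into libraries with the TruSeq RNA kit (version 1, a kit that does not mark strand), per the labels' protocols. The submitters' processing notes name the build TAIR10 and the tools STAR, HTSeq, DESeq2, Trimmomatic, FastQC and CASAVA, without saying what each did. For each gene and library the deposited value is a normalised signal made by the authors. Each column summed to 20000000 over 25517 entries, of which 103 without a locus code were left out of the tests, and every value was a whole multiple of 1 read within 0.001 reads (100% of values). Of 25414 named genes 1976 were at 0 in all 14 libraries, and 24932 matched the RefSeq annotation of TAIR10.1.

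A gene entered the test with a value of 10 in 2 or more libraries (6670 did not). log2(value + 4) was modelled by stage alone over 14 libraries in limma 3.58.1 (R 4.3.3), with 7 residual and 7.81 prior degrees of freedom, and the script was tested on simulated data. The members and the 26 gene lists were chosen with earlier results of these data known. The lists held 591 genes, of which 489 were used, 101 were not analysed here, 1 was left out because its locus and name disagreed, and 468 were tested. No list was tested as a set. The text names, by rule, the 15 genes that rose most and the 15 that fell most (adjusted p under 0.05, a mean of at least 100 where higher, no overlap). By rule it also draws on the 10 genes with the most reads in each stage and up to 6 members per list. Members called against their list are named in part, and not all of them are shown. ABI3, ABI5, BZIP53, FUS3, OLEO1, RBCS1A, EC1.1 to EC1.4, DUO1, MYB98, UGT80B1, XERO1, LTI30, M17 and HSP17.6II were named after their values were seen.

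The fit was repeated with other scalings (upper quartile, quantile, median centring, and named genes brought to equal totals), pseudocounts of 16 and 1, the filter raised to 50 or dropped, limma's array weights, a replicate block, the 4 libraries alone, each library left out in turn (a lone library was assumed to vary like the other stages), and edgeR 4.0.16 and DESeq2 1.42.0 on the recovered reads.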

Additional observations from a re-analysis of the deposited data

Results flagged for a closer look

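Of the 103 entries without a locus code, which no comparison used, 10 had a mean value of 100 or more in mature embryos and stood higher in both mature libraries than in either zygote library. They summed to 29492 and 17047 in mature libraries, against 707 and 854 in zygote libraries. The table gives them no locus, and no gene is named for them here.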

How the results depend on the processing

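Across the alternatives the number of genes higher in mature embryos ranged from 4592 to 6615 and the number lower from 5722 to 7110, within 1.5 times of 5550 and 6678. Leaving out 1 library at a time gave 4592 to 5642 higher and 5722 to 6774 lower. No gene called in both fits was called the other way with edgeR (11834 calls shared), DESeq2 (11544), the replicate block (12117), quantile normalization (11195), median centring (11359) or without any of the 4 compared libraries (10433 to 10857). On the recovered reads edgeR called 5841 genes higher and 6414 lower, and DESeq2 5276 and 6681. The replicate block gave 5524 higher and 6678 lower, and the numbers are not shown to pair the samples, since the deviations of mature and zygote replicate 1 correlated at 0.036. Genes detected averaged 17763.5 in mature and 18038 in zygote libraries at a value of 1, and 9728 and 10745.5 at a value of 50. At 10 reads after thinning, which is another threshold than a value of 10, they averaged 12176.5 and 14213.5. At a value of 10 they averaged 13055 and 14908. Without 1 replicate the number ranged from 12685 to 13425 in mature and 14730 to 15086 in zygote libraries. The 10 most read genes held 14.5% in mature and 9.15% in zygote libraries of reads in named genes (13.47% to 15.44% and 8.46% to 9.84% in single libraries), and 13.0% and 7.22% of all reads.

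For CCR1 the difference turned to -0.56 under quantile normalization. For FUS3 it turned to 0.056 under upper-quartile scaling, 0.090 under quantile normalization, 0.36 with median centring, 0.44 without zygote replicate 1 (-0.53 without zygote replicate 2) and 0.11 without mature replicate 2. For RBCS1A it turned to 0.65 with edgeR, 0.36 with DESeq2 and 1.49 without mature replicate 1, against -3.61 without mature replicate 2. The cause was not tested. Among the genes named, ACT2, DGAT3, DPBF2, PETC, PMDH2, PSAD-2, WOX1 and WUS lost their call when a library was left out. In single libraries 3 reads correspond to values of 2.91 to 4.69, below which a gene could not be told from 0. With genes without a read set at 3 reads over their stage, the median difference became -4.23 for the egg cell list, -1.77 for endosperm markers and -0.13 for pollen and synergid markers, and the other lists kept theirs.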

Other observations

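Families taken from the annotation's product names after the values were seen differed in how their members moved, and no test was made on them. Of 26 expansins, which loosen the wall during growth, 23 were lower and 0 higher (limma, also 0 higher at an unadjusted p under 0.05 and with edgeR or DESeq2), and of 159 pectin lyase or pectinesterase genes 99 were lower and 18 higher. Of 71 genes annotated as lipid transfer proteins 43 were lower and 7 higher, and of 59 peroxidases 32 were lower and 9 higher. These counts stand beside 35.6% of all genes lower and 29.6% higher. Genes annotated with ribosomal proteins of any compartment had 135 of 281 lower and 45 higher.

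In some families more members were higher than lower. Splicing factors had 24 of 49 higher and 8 lower, ubiquitin-conjugating enzymes 17 of 37 higher and 5 lower, and proteasome subunits 17 of 39 higher and 6 lower. Of 241 pentatricopeptide repeat proteins, which process organelle RNA, 85 were higher and 27 lower, and of 58 phosphatases of type 2C 24 were higher and 13 lower. Aspartyl proteases went the other way, with 14 of 54 higher and 28 lower. Of 63 DEAD-box RNA helicases 20 were higher (31.7%) and 24 lower (38.1%), near the 29.6% and 35.6% over all genes.

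Genes with a single exon made up 11.9% of genes higher in mature embryos and 21.1% of genes lower, against 16.8% of all genes tested. Median transcript length was 1714 bases for genes higher, 1620 for genes lower and 1695 for all tested.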
